A study of Oryza sativa Indica Group with 2 samples.

Results

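Plastids and mitochondria keep small genomes of their own, and pieces of this DNA have been copied into plant nuclear chromosomes throughout evolution. Such nuclear copies of organelle DNA change with time, and a recent insertion is close to identical in sequence to the organelle genome and to other recent insertions of the same stretch. Short reads from an organelle transcript can therefore align to the insertions as well, and a level listed for a locus inside an insertion cannot be told apart from the level of the organelle transcript itself. Most plant organelle transcripts lack the long poly(A) tails of nuclear mRNAs, and in organelles short tails mark RNA for decay.

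The loci described here lie in 5 ranges of locus numbers, 4 of which are defined as plastid insertions and 1 as a mitochondrial insertion. The ranges run from LOC_Os04g16700 to LOC_Os04g16900 on chromosome 4, from LOC_Os07g24980 to LOC_Os07g25010 on chromosome 7, from LOC_Os08g15230 to LOC_Os08g15330 on chromosome 8 and from LOC_Os10g21190 to LOC_Os10g21420 on chromosome 10 for the plastid, and from LOC_Os12g33900 to LOC_Os12g34150 on chromosome 12 for the mitochondrion. They hold 192 of the 55337 loci of the table, of which 58, 8, 26, 59 and 41 lie on chromosomes 4, 7, 8, 10 and 12. The ranges were chosen by the FPKM of their loci in both libraries and by the values that they share, so the values below describe the loci and test nothing. The table names no function for any locus and gives no sequence, so the organelle origin rests on the definition of the ranges and the roles of single loci are not given.

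Poly(A) RNA of spikelets from young panicles was sequenced as 1 library of the Osam1 mutant and 1 library of the wild type. Osam1 was induced by gamma rays in the indica variety Zhongxian 3037, and it carries a small deletion in OsAM1, a gene required for the passage from leptotene to zygotene in meiosis. Plants of Zhongxian 3037 without the mutation, grown in the same paddy field, were the wild type, and each RNA sample combined spikelets of several panicles. Both libraries go by their submitted labels below, since the spelling of the column headings and the published directions of single genes fit the reverse assignment of the columns, with which every direction below would turn round. OsAM1 itself was not used to check the labels, because the sources used here do not pair it with a locus of the table.

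Each genotype has 1 library, so no difference below has a replicate check, and no p-value was computed. The values are FPKM, that is fragments divided by transcript length and by the size of the library. The table gives no number of reads for any locus, so the reads behind a value are not known here. MEL1 (LOC_Os03g58600), a germ cell Argonaute gene, had 22.1 FPKM in the Osam1-labelled library and 19.6 FPKM in the wild-type-labelled library, and MIL1 (LOC_Os07g05630), a glutaredoxin gene of the anther, had 7.96 and 4.48 FPKM, so these markers of meiotic panicle tissue were present in both libraries. In such bulk tissue, fewer cells of a type and less RNA per cell cannot be told apart.

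Loci of the insertions were listed above 0 more often, and at higher levels, than loci in general. Of the 192 loci, 111 (57.8%) were above 0 in the Osam1-labelled library, against 39.9% of all loci, and 115 (59.9%) were above 0 in the wild-type-labelled library, against 42.9% of all loci. Their median level among loci above 0 was 70.2 FPKM in the Osam1-labelled library and 32 FPKM in the wild-type-labelled library, where the medians over all loci above 0 were 13.3 and 12.2 FPKM. At least 100 FPKM were reached by 42 loci (21.9%) in the Osam1-labelled library and by 35 loci (18.2%) in the wild-type-labelled library, against 3.53% and 3.74% of all loci. Among the 100 highest loci of each library, 7 were loci of the insertions in the Osam1-labelled library and 5 in the wild-type-labelled library. Together they held 2.03% of the summed FPKM of the Osam1-labelled library and 1.47% of that of the wild-type-labelled library. Without LOC_Os09g01000, the locus outside the ranges with the highest mean of the whole table, these shares were 2.60% and 1.59%.

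**Figure D1:**
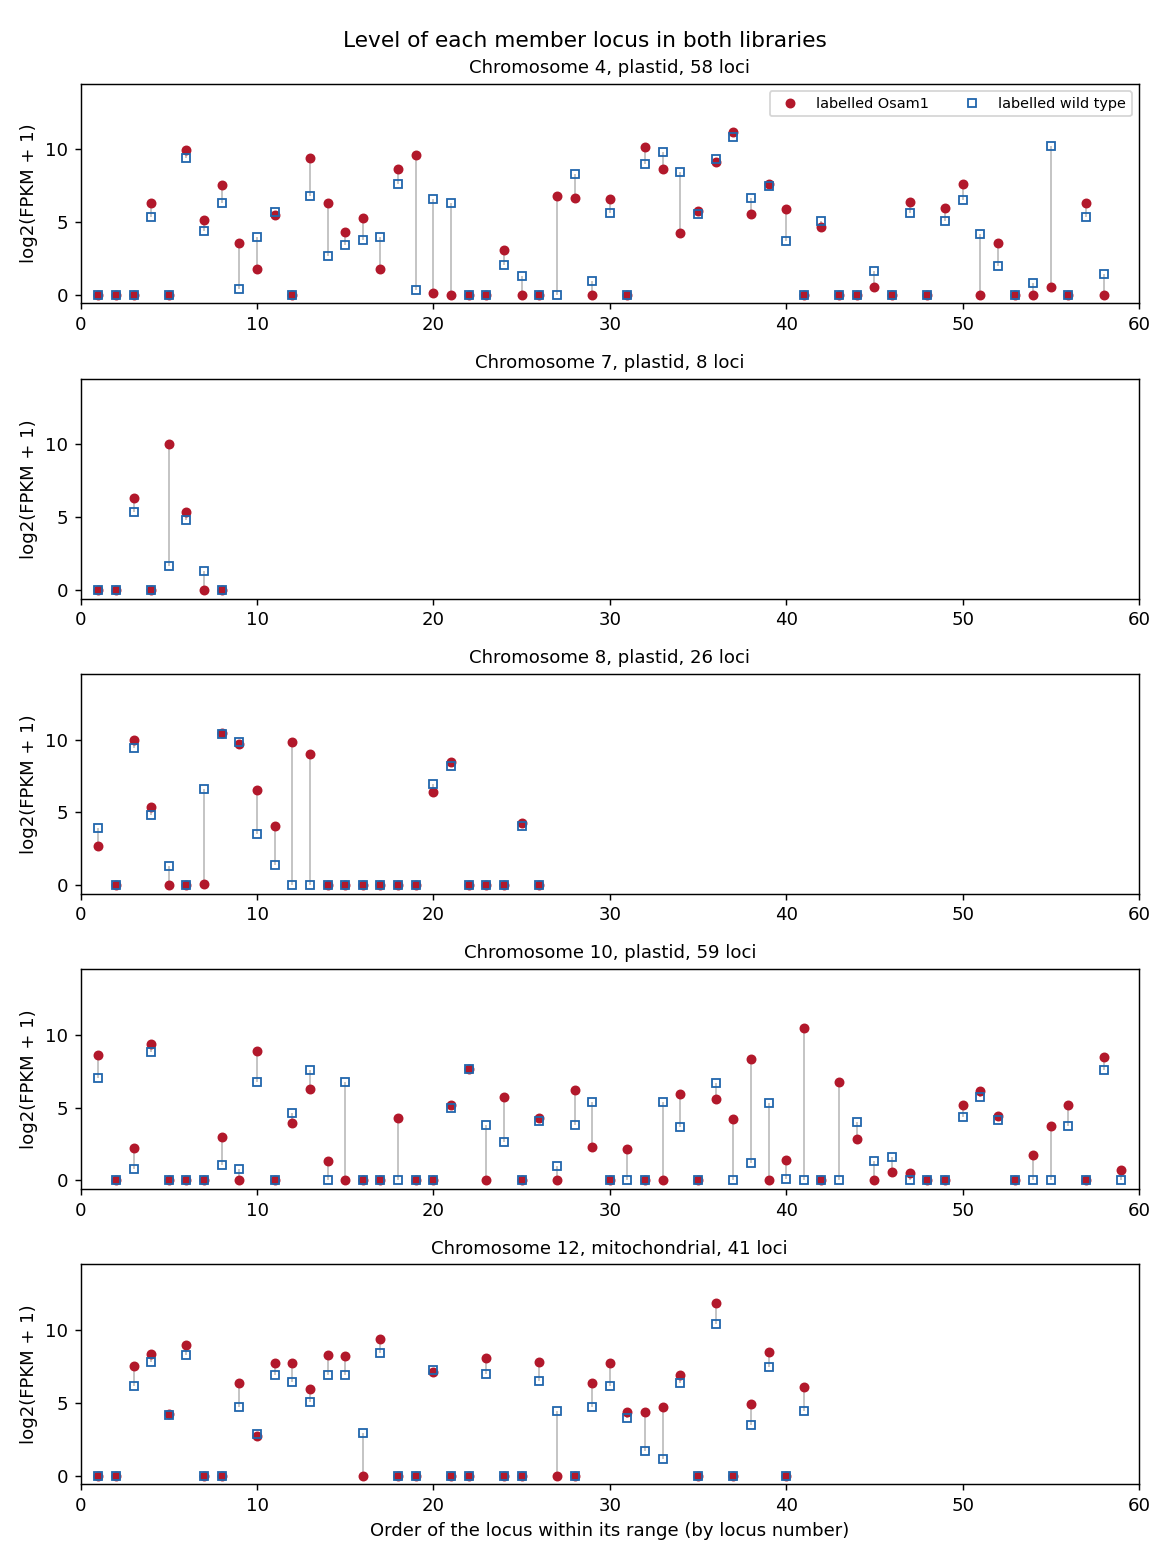
Level of each of the 192 loci, as log2(FPKM + 1), in the order of the locus numbers within each of the 5 ranges. Filled circles are the Osam1-labelled library, open squares the wild-type-labelled library, and grey lines join both values of a locus. High loci stand next to loci listed at 0 in both libraries, and long grey lines are frequent in the plastid ranges.

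Most of the signal lay inside the ranges and little of it beside them. The 10 listed loci on each side of each range, 100 flanking loci in all, had summed levels of 523 FPKM in the Osam1-labelled library and 293 FPKM in the wild-type-labelled library, against 27871 and 16775 FPKM for the loci inside. Of the flanking loci, 68 (68.0%) were listed at 0 in both libraries, compared with 64 (33.3%) of the loci inside and 50.3% of all loci. The flanks were thus emptier than the table in general. Both LOC_Os04g16690 and LOC_Os07g24970, just before the ranges of chromosomes 4 and 7, were listed at 0 in both libraries, as were the first loci inside, LOC_Os04g16700 and LOC_Os07g24980. At the far ends of these ranges, LOC_Os04g16900 was listed at 0 in the Osam1-labelled library and at 1.63 FPKM in the wild-type-labelled library, LOC_Os07g25010 was listed at 0 in both, and LOC_Os04g16910 and LOC_Os07g25014 outside were listed at 0 in both. On chromosome 10 the step was at the first locus, with LOC_Os10g21180 outside listed at 0 in both libraries and LOC_Os10g21190 inside at 384.7 FPKM in the Osam1-labelled library and 128.1 FPKM in the wild-type-labelled library. Its last locus, LOC_Os10g21420, had 0.66 FPKM in the Osam1-labelled library and was listed at 0 in the other, while LOC_Os10g21430 outside was listed at 0 and had 1.12 FPKM. On chromosome 8, LOC_Os08g15220 outside was listed at 0 in both, LOC_Os08g15230 inside had 5.35 and 14 FPKM, LOC_Os08g15330 inside was listed at 0 in both and LOC_Os08g15340 outside had 1.70 FPKM in the Osam1-labelled library and was listed at 0 in the wild-type-labelled library. On chromosome 12, LOC_Os12g33890 outside and LOC_Os12g33910, the first listed locus inside, were at 0 in both, LOC_Os12g34148 inside had 65.3 and 21.1 FPKM, and LOC_Os12g34154 outside had 23.6 FPKM in the Osam1-labelled library and was listed at 0 in the other. Not every flank was low, since LOC_Os08g15204, a short way before the range of chromosome 8, had 191.3 FPKM in the Osam1-labelled library and 88.6 FPKM in the wild-type-labelled library.

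Within the ranges the level lay on loci with an unusual kind of number. Loci of this annotation are mostly numbered in steps of 10, and 93.6% of all numbered loci have such a number. Inside the insertions only 50 of the 192 loci (26.0%) did, and 142 (74.0%) carried a number between the steps. Of the 142, 109 (76.8%) were above 0 in at least 1 library, and they held 94.1% of the summed FPKM of the insertions in the Osam1-labelled library and 95.9% in the wild-type-labelled library. Of the 50 loci numbered in steps of 10, 19 (38.0%) were above 0 in at least 1 library. Over all numbered loci of the table, the shares above 0 in at least 1 library were 56.6% between the steps and 49.3% on them. Levels in the ranges thus lay almost wholly on loci numbered between the steps, which on the whole table held 8.70% and 7.98% of the summed FPKM.

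Between the libraries, the summed level of the insertions was 1.66 times as high in the Osam1-labelled library, where the summed FPKM of all loci differed by a ratio of 1.20. The sums hide opposite changes of single loci. With 1 FPKM added to each value, 80 of the 192 loci (41.7%) differed at least 2-fold, against 20.8% of all loci, and since the ranges were chosen with these values known, nothing is read from the excess. Of the 80 loci, 51 (26.6% of 192) were higher in the Osam1-labelled library, against 9.57% of all loci, and 29 (15.1%) were lower, against 11.2% of all loci. Of these 80 loci, 24 were listed at 0 in 1 library. Without read numbers, a listed 0 may be a failed estimate and is not taken as absence of a transcript. Among all 192 loci, 30 (15.6%) were listed at 0 in 1 library alone, against 16.5% of all loci, 17 of them in the Osam1-labelled library and 13 in the wild-type-labelled library. Of the 98 loci above 0 in both libraries, 56 (57.1%) differed at least 2-fold, against 30.9% of all loci above 0 in both, 40 being higher and 16 lower in the Osam1-labelled library.

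By level, the share of loci that differed was highest from 1 to below 10 FPKM, both in the insertions and over all loci. With 1 FPKM added, a locus below 1 FPKM in both libraries cannot reach a 2-fold difference. This lowers the share of the lowest class by construction. Below a mean of 1 FPKM, 7 of 13 loci of the insertions (53.8%) differed at least 2-fold, against 31.9% of all loci of that class. Among loci whose mean of both libraries was from 1 to below 10 FPKM, 19 of 20 loci of the insertions (95.0%) differed at least 2-fold, against 66.1% of all loci of that class. From 10 to below 100 FPKM, 27 of 50 (54.0%) did, against 31.1% of all. At 100 FPKM or more, 27 of 45 (60.0%) did, against 21.6% of the 1988 loci of that class.

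**Figure D2:**
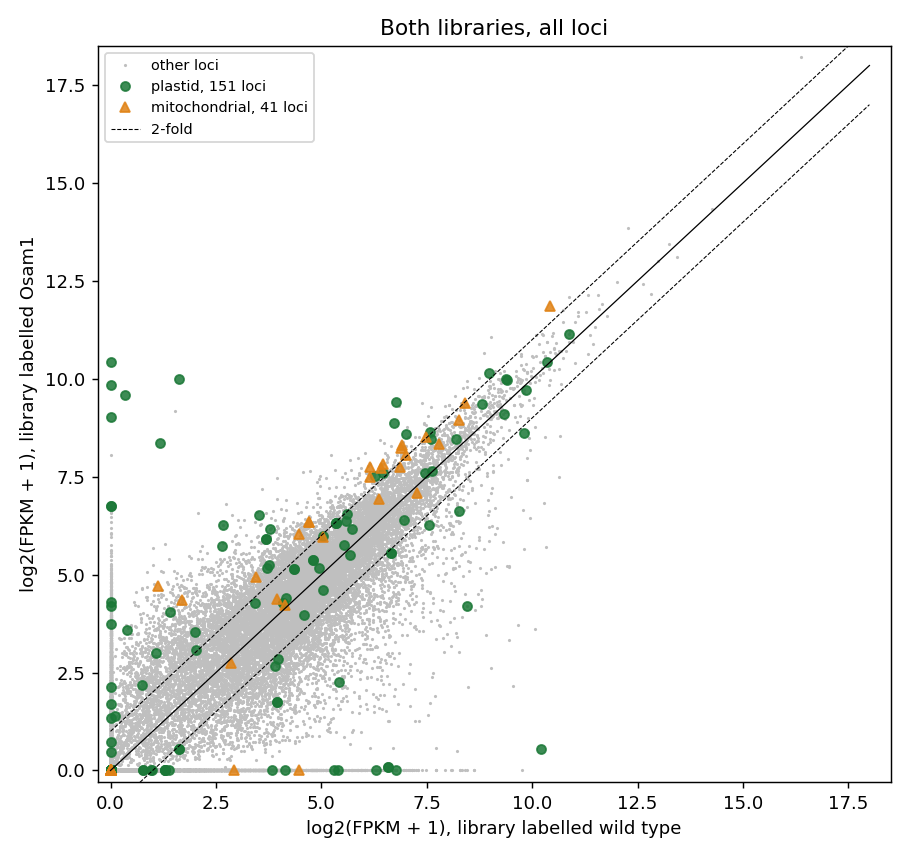
Level of every locus, as log2(FPKM + 1), in the wild-type-labelled library (horizontal) and the Osam1-labelled library (vertical), with the 151 plastid loci as green circles, the 41 mitochondrial loci as orange triangles and the other loci in grey; the solid line is equality and the dashed lines are 2-fold. The plastid loci reach the edges of the cloud on both sides. Most mitochondrial loci whose mean reached 1 FPKM lie above equality, around the upper 2-fold line, with a median log2 ratio of 1.06.

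The plastid and the mitochondrial loci differed in how far single loci departed from one another. Over the 88 plastid loci whose mean reached 1 FPKM, the log2 ratio of the Osam1-labelled library to the wild-type-labelled library had a median of 0.68, an interquartile range from -0.74 to 1.98 and extremes of -9.65 and 10.44. Over the 27 mitochondrial loci that did so, the median was 1.06, the interquartile range went from 0.55 to 1.46 and the extremes were -4.46 and 3.58. Over all 21837 loci that did so, the median was 0.03, with an interquartile range from -0.93 to 0.80. Spearman's rho between the libraries was 0.34 over the 88 plastid loci, 0.93 over the 27 mitochondrial loci and 0.75 over all 21837, as a description only, since the loci of a range share an origin and may share reads. The 2 sets also differed in level, with 18 plastid and 2 mitochondrial loci at a mean from 1 to below 10 FPKM. From 10 to below 100 FPKM, 20 of 40 plastid and 7 of 10 mitochondrial loci differed at least 2-fold, against 31.1% of all loci. At 100 FPKM or more, 18 of 30 and 9 of 15 did, against 21.6% of all. The difference between plastid and mitochondrial loci was not tested, because loci of 1 insertion are no replicates of it.

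**Figure D3:**
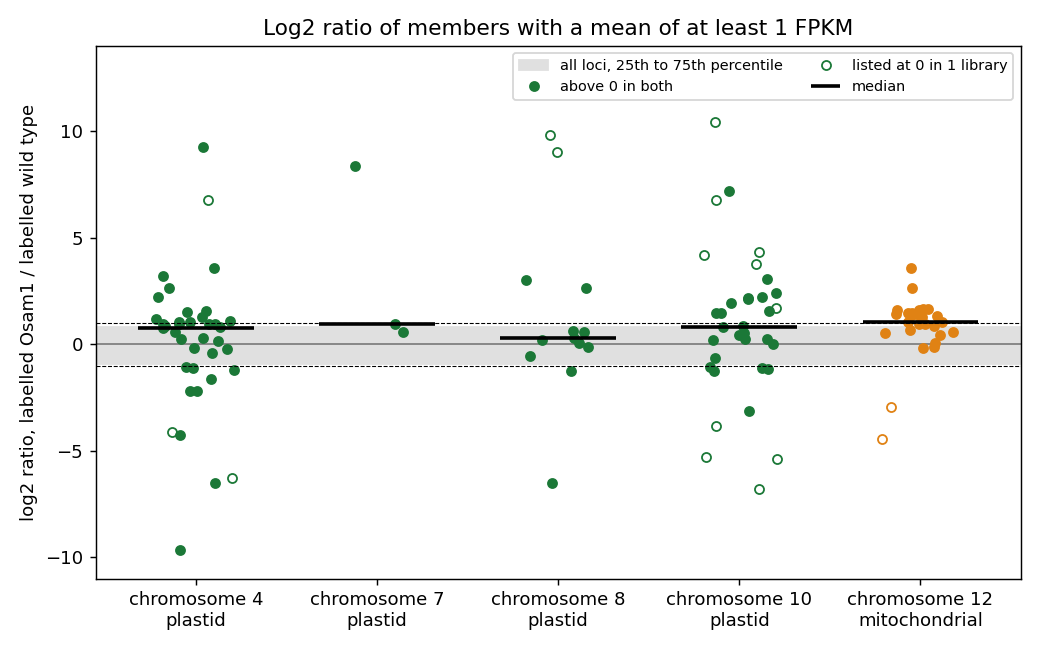
Log2 ratio of the Osam1-labelled library to the wild-type-labelled library, with 1 FPKM added, for loci of each range whose mean reached 1 FPKM. Filled points are above 0 in both libraries, open points are listed at 0 in 1 library, black bars are medians, the grey band is the interquartile range over all loci (-0.93 to 0.80) and dashed lines are 2-fold; most chromosome 12 points sit close together, with 2 open points below, and the plastid points spread from -9.65 to 10.44.

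The mitochondrial insertion on chromosome 12 had the narrowest interquartile range of log2 ratios of the 5 insertions, 0.91. The others had 2.26 on chromosome 4, 3.89 on chromosome 7, 2.79 on chromosome 8 and 3.18 on chromosome 10. That of chromosome 7 rests on 3 loci only, 1 of them LOC_Os07g25002 with a log2 ratio of 8.36. Over loci above 0 in both libraries, the interquartile range of chromosome 12 was 0.79, close to the 0.95 of chromosome 8. It was 1.89, 3.89 and 2.06 on chromosomes 4, 7 and 10. Of the 41 loci on chromosome 12, 25 were above 0 in both libraries, 2 in the wild-type-labelled library alone, 0 in the Osam1-labelled library alone, and 14 were listed at 0 in both. The summed level was 8153 FPKM in the Osam1-labelled library and 3619 FPKM in the wild-type-labelled library, a ratio of 2.25. Of the 27 loci whose mean reached 1 FPKM, 23 had the higher value in the Osam1-labelled library and 4 in the wild-type-labelled library. At least 2-fold, 15 loci (36.6% of 41) were higher in the Osam1-labelled library and 2 (4.88%) were lower there, against 9.57% and 11.2% of all loci.

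LOC_Os12g34108 had the highest mean of both libraries among all loci of the insertions, with 3723 FPKM in the Osam1-labelled library and 1364 FPKM in the wild-type-labelled library, a log2 ratio of 1.45. It ranked 14 among all loci in the former library and 50 in the latter, and held 45.7% and 37.7% of the level of its range. LOC_Os12g34018 had 665 FPKM in the Osam1-labelled library and 341.2 FPKM in the wild-type-labelled library, and LOC_Os12g33946 had 491 and 305.1 FPKM. These 3 loci, the highest of the range, had the higher value in the Osam1-labelled library.

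Ratios of the other expressed loci of the range ran from -4.46 to 3.58 on the log2 scale, and some lay close to that of LOC_Os12g34108. Among the latter, picked with their values in view, LOC_Os12g34012 had 316.9 FPKM in the Osam1-labelled library and 118.6 FPKM in the wild-type-labelled library, LOC_Os12g34014 had 301.1 and 118.3 FPKM, LOC_Os12g34062 had 224.3 and 87.3 FPKM and LOC_Os12g33922 had 179.9 and 70.3 FPKM, with log2 ratios between 1.34 and 1.41. LOC_Os12g33954 and LOC_Os12g34092, which lie apart within the range, had the same values, 80.9 FPKM in the Osam1-labelled library and 25.1 FPKM in the wild-type-labelled library. The highest ratios of the range were on lower loci, 25.1 and 1.18 FPKM at LOC_Os12g34100 (log2 ratio 3.58) and 19.3 and 2.23 FPKM at LOC_Os12g34098 (log2 ratio 2.65). The lowest ratios belonged to both loci listed at 0 in the Osam1-labelled library, LOC_Os12g34064 with 21.1 FPKM and LOC_Os12g34016 with 6.63 FPKM in the wild-type-labelled library. LOC_Os12g34045 went the other way at a high level, with 134.2 FPKM in the Osam1-labelled library and 154.1 FPKM in the wild-type-labelled library, within 2-fold.

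The plastid insertion on chromosome 4 had near-equal sums but many loci far apart. Of its 58 loci, 35 were above 0 in both libraries, 1 in the Osam1-labelled library alone, 6 in the wild-type-labelled library alone and 16 in neither. The sums were 8816 FPKM in the Osam1-labelled library and 7779 FPKM in the wild-type-labelled library, a ratio of 1.13. At least 2-fold, 13 loci (22.4%) were higher and 13 (22.4%) were lower in the Osam1-labelled library, against 9.57% and 11.2% of all loci.

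Of the 3 loci of this range with the highest means, 2 were within 2-fold. LOC_Os04g16834 had 2281 FPKM in the Osam1-labelled library and 1863 FPKM in the wild-type-labelled library, which ranked it 26 and 28 among all loci. LOC_Os04g16728 had 1002 and 675.8 FPKM, a log2 ratio of 0.57, and LOC_Os04g16824 had 1143 and 506 FPKM, a log2 ratio of 1.17.

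The extremes of the range had a high value in 1 library and almost none in the other. LOC_Os04g16886 had 0.47 FPKM in the Osam1-labelled library and 1177 FPKM in the wild-type-labelled library, where it ranked 66, a log2 ratio of -9.65. LOC_Os04g16772 had 769.8 FPKM in the Osam1-labelled library and 0.26 FPKM in the wild-type-labelled library, a log2 ratio of 9.26. LOC_Os04g16775, the next listed locus after LOC_Os04g16772, went the opposite way, with 0.06 FPKM in the Osam1-labelled library and 94.7 FPKM in the wild-type-labelled library. LOC_Os04g16782, which follows it, was listed at 0 in the Osam1-labelled library and at 77.5 FPKM in the wild-type-labelled library, while LOC_Os04g16812 had 106.4 FPKM in the Osam1-labelled library and was listed at 0 in the wild-type-labelled library. These extremes thus include neighbours by number with opposite directions, whereas LOC_Os04g16775 and LOC_Os04g16782, also neighbours, had the same direction.

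The plastid insertion on chromosome 10 had the largest number of loci listed at 0 in 1 library alone, 17 (28.8%), against 16.5% of all loci. Of its 59 loci, 24 were above 0 in both libraries, 10 in the Osam1-labelled library alone, 7 in the wild-type-labelled library alone and 18 in neither. The sums were 4488 FPKM in the Osam1-labelled library and 1826 FPKM in the wild-type-labelled library, a ratio of 2.46. The locus with the highest mean, LOC_Os10g21352, had 1388 FPKM in the Osam1-labelled library, 30.9% of the sum of the range, and was listed at 0 in the wild-type-labelled library. At least 2-fold, 18 loci (30.5%) were higher and 10 (16.9%) lower in the Osam1-labelled library, against 9.57% and 11.2% of all loci.

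The other loci with high means in this range were above 0 in both libraries. LOC_Os10g21196 had 649.9 FPKM in the Osam1-labelled library and 451.5 FPKM in the wild-type-labelled library, a log2 ratio of 0.52. LOC_Os10g21230, with several transcript models, had 467.9 FPKM in the Osam1-labelled library and 104.9 FPKM in the wild-type-labelled library. Its transcript model 1 had 153.2 and 69.9 FPKM and its transcript model 2 had 314.8 and 35.0 FPKM, so both were higher in the Osam1-labelled library.

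Single loci of the range again departed far from the sum. LOC_Os10g21344 had 327.1 FPKM in the Osam1-labelled library and 1.27 FPKM in the wild-type-labelled library, a log2 ratio of 7.18. LOC_Os10g21244 was listed at 0 in the Osam1-labelled library and at 108.6 FPKM in the wild-type-labelled library, and LOC_Os10g21324 was listed at 0 and at 40.8 FPKM. LOC_Os10g21268, in contrast, had 199.4 and 195.8 FPKM. For LOC_Os10g21360, transcript model 1 had 14.8 FPKM in the wild-type-labelled library and was listed at 0 in the other. Its transcript model 2 had 6.16 FPKM in the Osam1-labelled library and was listed at 0 in the other. How reads were divided between the models is not known here, and a change of model was not tested. Near-equal levels, large differences in either direction and transcript models listed in opposite libraries were thus all found within 1 insertion.

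The plastid insertion on chromosome 8 held 26 loci, of which 11 were above 0 in both libraries and 12 in neither. The 3 loci with the highest mean of both libraries differed less than 2-fold. LOC_Os08g15266 had 1381 FPKM in the Osam1-labelled library and 1303 FPKM in the wild-type-labelled library, LOC_Os08g15268 had 832.9 and 926.9 FPKM, and LOC_Os08g15246 had 1019.7 and 670.6 FPKM. They stand in contrast to 2 loci close by, LOC_Os08g15276 with 912.3 FPKM and LOC_Os08g15278 with 520.4 FPKM in the Osam1-labelled library, both of which were listed at 0 in the wild-type-labelled library. Among loci whose mean reached 1 FPKM, the lowest ratios were those of LOC_Os08g15264, with 0.06 FPKM in the Osam1-labelled library and 94.7 FPKM in the wild-type-labelled library, and of LOC_Os08g15230, given above. The sums were 5275 FPKM in the Osam1-labelled library and 3481 FPKM in the wild-type-labelled library, a ratio of 1.52. In this range 7 loci (26.9%) differed at least 2-fold, 4 higher and 3 lower in the Osam1-labelled library, not far from the 20.8% of all loci.

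The plastid insertion on chromosome 7 was the smallest, with 8 loci, of which 4 were listed at 0 in both libraries. LOC_Os07g25002 had 1019.7 FPKM in the Osam1-labelled library, 89.5% of the sum of the range, and 2.10 FPKM in the wild-type-labelled library. LOC_Os07g24992 had 78.8 and 39.9 FPKM, LOC_Os07g25004 had 40.7 and 26.7 FPKM, and LOC_Os07g25006 was listed at 0 in the Osam1-labelled library and at 1.45 FPKM in the wild-type-labelled library. The ratio of the sums, 16.2, therefore rested on LOC_Os07g25002.

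Loci of the insertions often had exactly the values of another locus. Of the 98 loci above 0 in both libraries, 27 (27.6%) had the same FPKM as another locus in both libraries, to the last deposited decimal, against 1.73% of all loci above 0 in both. With at least 10 FPKM required in both libraries, a level at which equal values are rarer in the table, 19 of 71 (26.8%) did so, against 0.479% of all such loci. These 19 loci were 37.3% of the 51 loci with shared values at that level in the whole table. The 27 loci formed 16 sets of equal loci, 14 of which spanned more than 1 chromosome, and the sets took in 11 loci outside the ranges. All but 2 of the 27 were plastid loci.

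**Figure D4:**
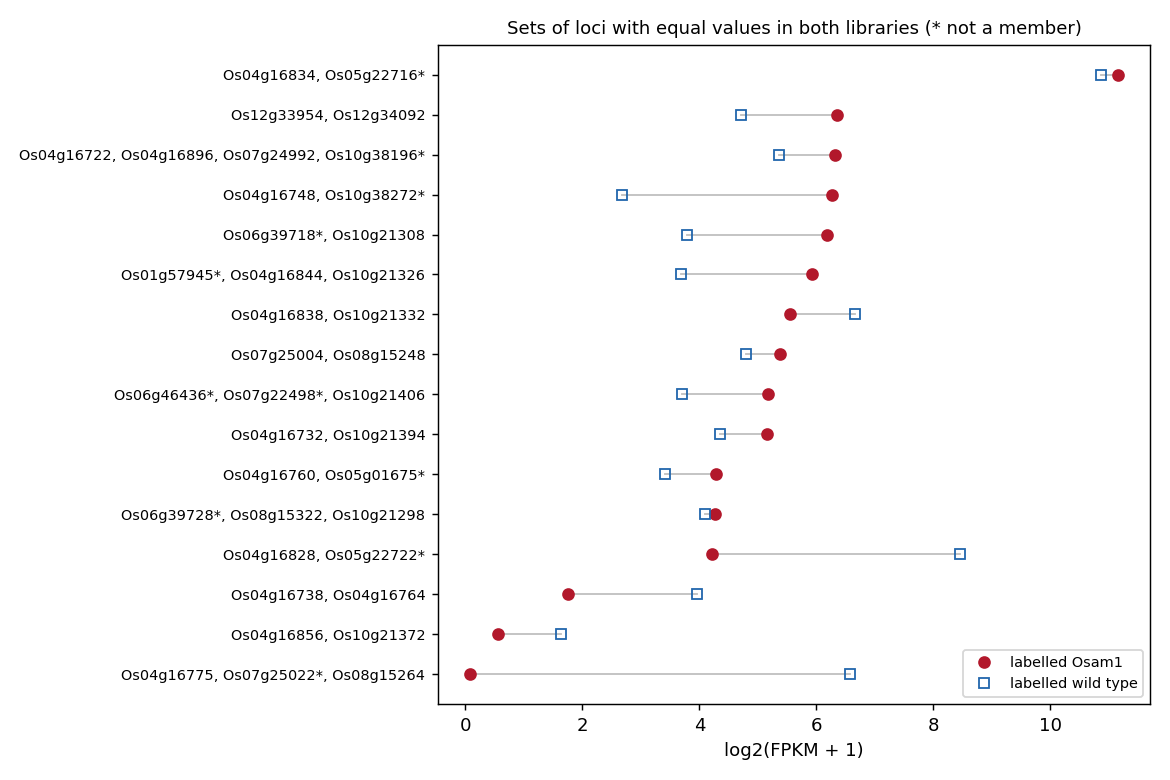
The 16 sets of loci with equal values in both libraries that hold at least 1 locus of the insertions, ordered by level in the Osam1-labelled library. Each line is 1 set, with log2(FPKM + 1) in the Osam1-labelled library (filled circle) and in the wild-type-labelled library (open square), and stars mark loci outside the ranges. The sets range from 0.06 to 2281 FPKM in the Osam1-labelled library, and in 5 of them the wild-type-labelled library has the higher value.

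The largest set had 4 loci, LOC_Os04g16722, LOC_Os04g16896, LOC_Os07g24992 and LOC_Os10g38196, each with 78.8 FPKM in the Osam1-labelled library and 39.9 FPKM in the wild-type-labelled library. LOC_Os10g38196 lies outside the ranges, and the first and the second locus of the set lie far apart in the insertion of chromosome 4. LOC_Os04g16844 and LOC_Os10g21326 shared 59.5 and 11.9 FPKM with LOC_Os01g57945 on chromosome 1. LOC_Os08g15322 and LOC_Os10g21298 shared 18.2 and 16.0 FPKM with LOC_Os06g39728 on chromosome 6, and LOC_Os10g21406 shared 35.0 and 12 FPKM with LOC_Os06g46436 and LOC_Os07g22498. The most extreme shared difference was that of LOC_Os04g16775 and LOC_Os08g15264, which had the 0.06 and 94.7 FPKM given above in common with LOC_Os07g25022, a locus just beyond the range of chromosome 7. Equal values thus linked loci whose levels were alike in both libraries as well as loci that differed greatly between them.

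The highest locus of chromosome 4, LOC_Os04g16834, had its 2281 and 1863 FPKM in common with LOC_Os05g22716 on chromosome 5. LOC_Os04g16828 shared 17.5 FPKM in the Osam1-labelled library and 348.2 FPKM in the wild-type-labelled library with LOC_Os05g22722, also on chromosome 5. By their numbers, these loci come in opposite order on the chromosomes 4 and 5. LOC_Os04g16838 and LOC_Os10g21332 shared 46.1 and 100.4 FPKM, LOC_Os04g16732 and LOC_Os10g21394 shared 34.5 and 19.5 FPKM, and LOC_Os07g25004 and LOC_Os08g15248 shared 40.7 and 26.7 FPKM.

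Other loci of the insertions were equal in 1 library and far apart in the other. LOC_Os07g25002 and LOC_Os08g15246 both had 1019.7 FPKM in the Osam1-labelled library, but 2.10 and 670.6 FPKM in the wild-type-labelled library. LOC_Os04g16748 and LOC_Os10g21238 both had 76.3 FPKM in the Osam1-labelled library, but 5.40 and 186.2 FPKM in the wild-type-labelled library. LOC_Os04g16745 and LOC_Os10g21244 both had 108.6 FPKM in the wild-type-labelled library, whereas the former had 674 FPKM in the Osam1-labelled library and the latter was listed at 0 there. Equal values are common in the table when each library is counted by itself, whether or not the values of the other library are equal too. They were found for 9.79% of the loci of at least 100 FPKM in the Osam1-labelled library and 9.18% of those in the wild-type-labelled library. Of the loci of the insertions, 8 of 42 and 8 of 35 had one, among them LOC_Os04g16834, which is equal in both libraries. How reads that align to several places were divided among loci is not given in the sources used here. Such reads were a sizeable share of each library by the read statistics of the study, a larger one in the wild type than in Osam1, and their part in the differences between the libraries was not tested.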

How the data were processed

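The members and lists were chosen with earlier results of these data known. Poly(A) RNA libraries were made without strand information, with 18 cycles of PCR, so overlapping and antisense loci cannot be told apart. Reads were freed of adaptors and of low-quality reads and aligned to the rice genome with SOAPaligner. The authors computed levels with ERANGE and deposited FPKM per transcript model with 2 decimals, which their methods call RPKM. The annotation came from the Rice Genome Annotation Project, and its release and the treatment of reads with several positions are not given in the sources used here.

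The 65535 transcript models were summed to 55337 loci. Members were taken by locus number. None of their identifiers (0 matched) is in the RefSeq gene table, so no names, coordinates or sequences are given. Ratios were log2((FPKM + 1)/(FPKM + 1)), and an absolute value of at least 1 counted as a difference of at least 2-fold. With 1 library per genotype no test was possible. Medians of ratios were taken over loci whose mean reached 1 FPKM. Values were called equal with no tolerance beyond the deposited decimals. Over 4326 loci with 1 transcript model and 1 to 10 FPKM in the Osam1-labelled library, the most frequent ratio to the other library was 2.38, found for 123 loci. Such a ratio would arise from 1 read in each if the wild-type-labelled library were deeper, which was not tested. The read statistics of the study give more reads to Osam1 than to the wild type, the reverse of this direction. Named loci were, in each range, the ends with the nearest loci outside, the 3 highest means, the 2 highest and 2 lowest ratios among loci whose mean reached 1 FPKM, the largest sets of equal loci and loci whose transcript models disagree. Further loci, among them other pairs of equal loci, were picked with their values in view. The functions for calls, sets and ranges were tested on simulated data. Alternatives were other added values, scalings, units, filters and cutoffs, the plastid ranges alone, and exchanged labels. Python 3.11.15, numpy 2.4.6, pandas 2.3.3 and matplotlib 3.10.9 were used.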

Additional observations from a re-analysis of the deposited data

How the results depend on the processing

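Exchanging the labels, which the spelling of the headings makes possible, turned the median log2 ratio of 0.86 to -0.86 and left 29 loci at least 2-fold higher and 51 lower in the library then called Osam1; for single loci it turns each sign by construction and was not tabulated. Only 50 loci are numbered in steps of 10, and 19 of them were above 0 in at least 1 library. Keeping these 50 left 11 that differed at least 2-fold, 7 higher and 4 lower. Over all 50, the share was well below the 41.7% of all 192 loci and close to the 20.8% of all loci. Loci listed at 0 in both libraries cannot differ, however, so the 11 fell among the 19 above 0. Among loci above 0 in at least 1 library, 80 of 128 differed over all the insertions and 11521 of 27498 over the whole table. Requiring values above 0 in both libraries left 56 loci that differed, with 16 lower in place of 29. Over the plastid ranges alone, 63 of 151 loci (41.7%) differed at least 2-fold, the median log2 ratio was 0.68 and the ratio of the summed levels was 1.5. Under the other settings, the number of loci that differed at least 2-fold went from 73 to 86 and the median log2 ratio from 0.75 to 0.88. The number of loci with shared values went from 19 to 27, and the ratio of the summed levels from 1.66 to 1.67. Dividing by the median ratio or by the 75th percentiles kept all 67 named loci of the ranges on their side of 2-fold, and so did adding 0.1 or 0.01 FPKM for 66 of them. The exception was LOC_Os10g21420, within 2-fold with 1 FPKM added, whose log2 ratio was 2.93 with 0.1 and 6.07 with 0.01 FPKM added. No paired analysis was possible because each genotype has 1 library, and leaving out a library leaves no comparison. Depth, replicate spread and the division of reads among copies set limits that the table does not show.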

Other observations

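Some loci outside the ranges, picked after their values were seen, had the values of loci inside, and their neighbours were examined for this reason. On chromosome 10, beyond the range, the 13 loci from LOC_Os10g38189 to LOC_Os10g38278 had summed levels of 1314 FPKM in the Osam1-labelled library and 868 FPKM in the wild-type-labelled library, and 12 of them were above 0 in at least 1 library. They include LOC_Os10g38196 and LOC_Os10g38272, which have equal values with loci of the chromosome 4 insertion, and LOC_Os10g38238, which was listed at 0 in the Osam1-labelled library and at 108.6 FPKM in the wild-type-labelled library, the same pair as LOC_Os10g21244. On chromosome 5, the 6 loci from LOC_Os05g22712 to LOC_Os05g22730 had 2435 and 2556 FPKM in sum, nearly all of it in the Osam1-labelled library on LOC_Os05g22716, and LOC_Os05g22718 was listed at 0 in that library and at 320.4 FPKM in the wild-type-labelled library.

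On chromosome 1, the 23 loci from LOC_Os01g57940 to LOC_Os01g58049 had summed levels of 5768 FPKM in the Osam1-labelled library and 2475 FPKM in the wild-type-labelled library, a ratio of 2.33. LOC_Os01g57968 alone had 4360 FPKM in the Osam1-labelled library and 1869 FPKM in the wild-type-labelled library, above every locus of the ranges in both libraries. LOC_Os01g57958, close to it, had 576 FPKM in the Osam1-labelled library and 1.89 FPKM in the wild-type-labelled library. On chromosome 6, the 7 loci from LOC_Os06g39708 to LOC_Os06g39740 had 248 and 208 FPKM in sum, and LOC_Os06g39712 was listed at 0 in the Osam1-labelled library and at 63.0 FPKM in the wild-type-labelled library.

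Neighbouring loci on chromosomes 7 and 9 repeated a part of this pattern. LOC_Os07g25018, just beyond the range of chromosome 7, and LOC_Os09g24406 both had 97.8 FPKM in the Osam1-labelled library and were listed at 0 in the wild-type-labelled library, and LOC_Os04g16816 inside the chromosome 4 insertion had the same 97.8 FPKM but 305.6 FPKM in the wild-type-labelled library. The next listed locus with a value above 0 on chromosome 7, LOC_Os07g25022, and LOC_Os09g24408 both had 94.7 FPKM in the wild-type-labelled library, with 0.06 and 254.6 FPKM in the Osam1-labelled library. Whether these loci are further organelle insertions was not tested, since no sequence was used here.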
